A study of Mus musculus with 6 samples.

Results

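The genes described here handle iron in mouse Sertoli cells, the somatic nurse cells of the seminiferous tubules. They are 8 genes chosen by name: Trf, Tfrc, Lcn2, Fth1, Ftl1, Slc11a2, Slc40a1 and Cp. They were found through the platform's gene symbols and account for 8 of 19057 named genes and 17 of 45281 probes on each array. Transcript levels were measured on 6 Illumina bead arrays. The RNA came from Sertoli cells that were marked by a Sox9-GFP reporter and sorted by fluorescence. The 3 cKO arrays came from mice of genotype Rb1 flox/- with Amh-Cre, in which Cre recombinase under the Amh promoter, active in Sertoli cells, acts on the single floxed copy of the retinoblastoma gene. The 3 Control arrays came from Rb1 flox/- mice without Cre, so both groups carry a null allele of Rb1 and the controls keep 1 intact copy. All mice were 6 weeks old and of C57B6J/129SvEv background. Only the cKO mice carried Cre, so an effect of Cre and the loss of Rb1 cannot be told apart. Nothing in the labels says that the 3 arrays of a group stand for separate mice, and the spread that p-values rest on may be technical.

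Iron reaches the adluminal germ cells across the Sertoli cell barrier. Sertoli cells take up iron-loaded transferrin from the blood side through the transferrin receptor and secrete transferrin of their own, the product of Trf, towards the germ cells. Inside a cell, DMT1 (Slc11a2) moves iron out of endosomes, ferritin (Fth1 and Ftl1) stores it, and ferroportin (Slc40a1) exports it with the help of a ferroxidase such as ceruloplasmin (Cp). Iron regulatory proteins bind hairpins in several of these mRNAs: they stabilise Tfrc mRNA and block translation of ferritin mRNA, so a ferritin transcript level need not follow the protein. Lipocalin 2 (Lcn2) binds iron-laden siderophores and is induced in many epithelia during the acute phase response.

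The arrays themselves were compared first. The share of probes detected was 43.0% to 50.04% on cKO arrays and 46.0% to 53.5% on Control arrays. Along the first principal component, with 58.9% of the variance, cKO replicate 1 was at -113.9 and Control replicate 3 at 110.2, and the other 4 arrays lay between -34.3 and 31.4. The 2 Rb1 probes differed by -1.22 ± 0.32 and -0.98 ± 0.34 (SE) log2 units, with adjusted p of 0.399 and 0.668 in limma. Both had all cKO arrays below all Control arrays. Their positions were not compared with the floxed segment, so they do not check the deletion itself. Sertoli identity was checked against 12 marker genes, of which 10 had a probe, and each of these 10, among them Sox9, Gata4, Dhh and Fshr, was detected on all 6 arrays. Spermatid markers such as Prm1 were bright in both groups, at 14.8 in cKO and 14.8 in Control.

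Of the 8 genes, Lcn2 had the largest difference between the groups and was the only one whose brightest probe separated every cKO array from every Control array. Among all 12277 tested genes, 9.56% were separated in this way as higher in cKO and 4.33% as lower. Trf had the largest difference in the other direction, but its groups overlapped and the difference of -2.54 log2 units was -1.11 without cKO replicate 1. The ferritin transcripts were bright in both groups, with differences of 0.07 to 0.31 log2 units. None of the 14 tested member probes passed an adjusted p of 0.05 in limma, against 31 of 21805 probes over the whole array, or 0.142%, all of them higher in cKO. At an unadjusted p of 0.05 the Lcn2 probe passed, beside 6.39% of all tested probes (4.63% higher and 1.76% lower). A Cp probe also did, but it was above background on 1 of 3 Control arrays and was tested only through its cKO values, so it is not counted. Here and below, levels are normalised log2 intensities, and a difference is cKO minus Control. The other 3 member probes, 1 each of Ftl1, Slc40a1 and Cp, were detected on no array and were not tested. The levels of different probes cannot be set against each other, because each probe binds with its own strength.

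**Figure D1:**
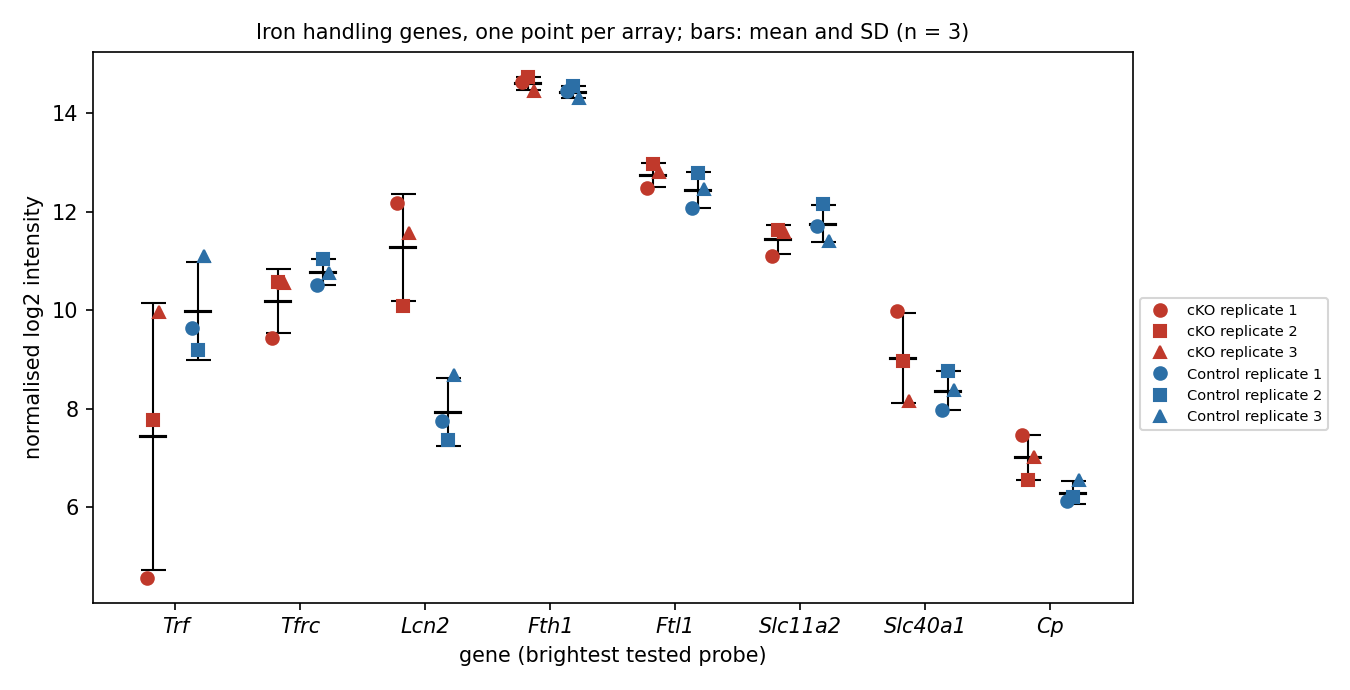
The normalised log2 intensity (vertical axis) of the brightest tested probe of each of the 8 genes, 1 point per array, cKO arrays in red and Control arrays in blue, with bars for the mean and SD of 3 arrays. For Lcn2 the cKO arrays lie between 10.08 and 12.18, all above the Control arrays at 7.35 to 8.69, and for Trf cKO replicate 1 lies at 4.57, far under the other 5 arrays.

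Lcn2 was measured by 1 probe, ILMN_2712075, which was detected on all 6 arrays. The bases upstream of its annotated start, chr2:32387740-32387989 on the minus strand of GRCm38.p6 (RefSeq), are shown because Lcn2 is the member with the largest difference, and the capitals mark the 1 match to a C/EBP-like motif, TTGNGNAA, searched on both strands.
Lcn2 upstream bases: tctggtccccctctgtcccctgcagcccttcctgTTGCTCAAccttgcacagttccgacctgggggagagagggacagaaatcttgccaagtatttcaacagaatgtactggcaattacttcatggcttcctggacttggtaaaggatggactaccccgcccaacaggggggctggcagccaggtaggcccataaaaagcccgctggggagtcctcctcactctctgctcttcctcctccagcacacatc
The match is on the strand opposite to the one shown, so the capitals fit the reverse complement of the motif letters. The match begins at position -216 from the start and overlaps no other motif searched. The same letters were found in 11.7% of 32851 promoter windows of that length, so a match is common. An NF-kB-like motif, GGGNN joined to TTNCC, present in 4.11% of windows, and a STAT-like motif, TTCNNNGAA, present in 7.02%, had no match in these 250 bases. RefSeq windows were given for 5 of the 8 genes. The C/EBP-like motif also matched 1 of 2 Fth1 windows and the Ftl1 window, but none of Tfrc or Cp.

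Lcn2 levels were 12.18, 10.08 and 11.57 on cKO replicates 1 to 3, against 7.74, 7.35 and 8.69 on Control replicates 1 to 3. The lowest cKO array lay above the highest Control array. On the unnormalised scale the probe's intensities were 5480.2, 1253.7 and 2822.5 in cKO and 235.8, 163.4 and 467.4 in Control, each a mean over 28 to 44 beads whose standard error was 2.27% to 4.07% of the value. The bead error is therefore small beside the spread within a group. Lcn2 averaged 11.28 ± 1.08 in cKO and 7.93 ± 0.69 in Control (SD, n = 3 each), a difference of 3.35 ± 0.59 (SE), or 10.2-fold. Its 95% interval ran from 1.96 to 4.74, and its unadjusted p of 0.000655 ranked 115th of 21805 probes. The adjusted p was 0.124 in limma and stayed between 0.0610 and 0.593 under the alternatives, so Lcn2 did not pass. Its cKO arrays did not overlap the Control arrays, which was also so for 8.04% of all tested probes in that direction and for 4.01% in the other.

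Lipocalin 2 is stored in neutrophil granules, and markers of other cell types are given beside it. Neutrophil markers summed to 322.5 to 803.6 on cKO arrays and 254.0 to 324.8 on Control arrays, as normalised intensities over the brightest probe of each gene. Of the 10 neutrophil genes with a probe, 7, among them S100a8, S100a9, Ngp and Elane, were detected on no array. Both tested members, Camp and Mpo, had positive differences, of 2.05 ± 0.59 and 1.07 ± 0.58, with adjusted p of 0.483 and 0.766. Lactoferrin (Ltf), another iron-binding protein of neutrophil granules, was detected on 2 of 6 arrays and was not tested.

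Leydig cell markers summed to 2317 to 8605 in cKO and 1188 to 2974 in Control, and all 4 tested of 6 listed had positive differences. Of the 4, Star was detected on 3 of 6 arrays. It was tested only through its cKO values, so its positive sign follows from the detection filter. Peritubular myoid markers summed to 3311 to 9577 in cKO and 1620 to 1926 in Control, with 3 of 3 tested genes positive. Acta2 was by far the brightest of them and dominates these sums. Its brightest probe differed by 1.81 ± 0.41 (limma's adjusted p 0.278), and its other tested probes by 0.18 and 1.9. Myh11 differed by 0.49 ± 0.54 and Des by 0.77 ± 0.32, both with overlapping groups. Endothelial markers summed to 500.6 to 1034 in cKO and 275.9 to 442.4 in Control, with 6 of 6 positive. Emcn among them was detected on 4 of 6 arrays, with Control levels of 4.80, 4.83 and 5.02 mostly at background. Spermatogonia markers summed to 4329 to 5272 in cKO and 3543 to 4335 in Control, with 4 of 5 positive and a median of 0.67, and their mean log2 level was higher on each cKO array than on each Control array. Macrophage markers summed to 2077 to 3761 in cKO and 4497 to 5421 in Control, with 3 of 4 positive and a median of 0.41. The negative one, Mrc1, was by far the brightest and dominates these sums. It was at 10.67, 11.73 and 11.65 in cKO and 12.03, 12.32 and 12.19 in Control. Its difference was -0.83 ± 0.34, with an adjusted p of 0.763 in limma. Among the positive 3, Adgre1 was detected on 4 of 6 arrays, with Control values mostly at background. Over the cKO arrays the Leydig, peritubular and endothelial sums had the order of Lcn2, highest on replicate 1 and lowest on replicate 2. By mean log2 level the peritubular markers were instead highest on cKO replicate 3, at 8.77 against 8.51 on replicate 1. Over the Control arrays Lcn2 was highest on replicate 3 and lowest on replicate 2, and none of these sums had that order. No gene of these lists passed the threshold, Hsd3b1 (Leydig), Cnn1 and Tagln (peritubular) and Kdr (endothelial) were detected on no array, and the part of other cell types in the Lcn2 difference was not tested. In such bulk samples, fewer cells of a type and less RNA per cell cannot be told apart. Without cKO replicate 1 and Control replicate 3, the Lcn2 difference was 3.28.

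**Figure D2:**
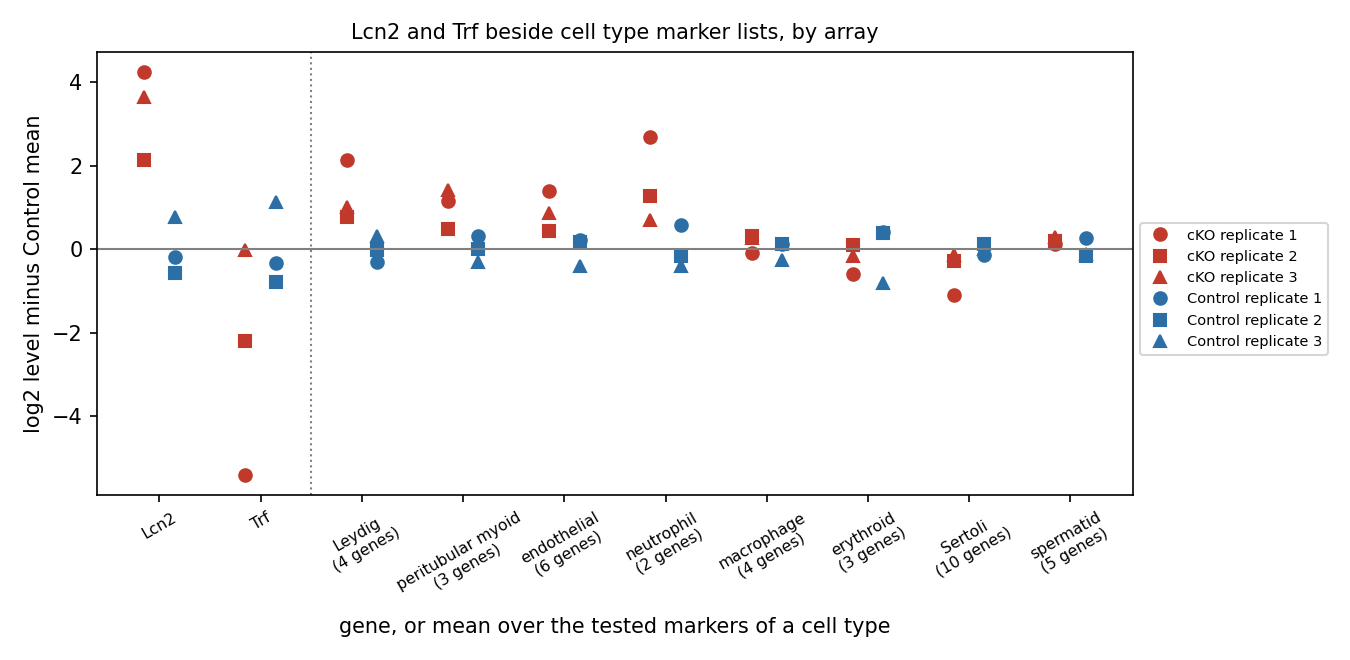
Log2 levels relative to the Control mean (vertical axis) of Lcn2, of Trf and of the mean over the tested markers of 8 cell types, 1 point per array, cKO in red to the left and Control in blue to the right of each tick. The cKO arrays lie above the Control arrays for Lcn2 and for the Leydig, peritubular, endothelial and neutrophil means, while the Sertoli mean is lowest on cKO replicate 1. The Leydig mean includes Star and the endothelial mean Emcn, whose Control values were all or mostly at background. The Sertoli mean includes Inha, which was at 5.42, 9.92 and 12.24 on cKO replicates 1 to 3.

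By pattern over the 6 arrays, the genes most like Lcn2 were Hspb8, Tgm2, Trim2, Cxcl2 and Tpm4. Likeness was the root mean square difference between values centred on each gene's own mean, 0.49 to 0.54 log2 units for these 5, against a median of 1.83 over all genes. Hspb8 is a small heat shock protein, Tgm2 a transglutaminase, Cxcl2 a neutrophil chemokine and Tpm4 a tropomyosin. The 5 were picked on these same arrays for a profile like that of Lcn2, so their positive differences follow from the choice. Of the 5, only Tgm2 passed the threshold, at 3.13 ± 0.34 with an adjusted p of 0.0342 in limma. Over all tested genes, 0.195% passed it as higher in cKO. With the replicate number as a block no probe of the array passed. The receptor for Lcn2, Slc22a17, was named after its values were seen: its brightest probe differed by -1.21 ± 0.89 (adjusted p 0.766), with 5.14, 6.49 and 8.90 in cKO and 7.61, 7.76 and 8.80 in Control. A second Slc22a17 probe gave -0.29. The brightest was detected on 5 of 6 arrays, and its 5.14 on cKO replicate 1 was under that array's lowest detected level of 5.35. Its low values lay on cKO replicates 1 and 2, and without cKO replicate 1 and Control replicate 3 its difference was 0.014.

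Trf encodes transferrin, the iron carrier that Sertoli cells secrete, and was also measured by 1 probe, ILMN_2485323. Its levels were 4.57, 7.77 and 9.97 on cKO replicates 1 to 3, against 9.64, 9.19 and 11.10 on Control replicates 1 to 3. The unnormalised intensities were 50.1, 267.7 and 1006.1 in cKO and 831.3, 534.2 and 2028.1 in Control. On cKO replicate 1 the probe was not above background, at a detection score of 0.654 where 0.95 was required, so only 2 of 3 cKO arrays measured it. The cKO array of replicate 3 lay above 2 of the Control arrays, and the groups overlapped.

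Trf averaged 7.44 ± 2.72 in cKO and 9.98 ± 1.00 in Control (SD, n = 3 each). The difference of -2.54 ± 1.25 (SE) had a 95% interval from -5.48 to 0.40 and an adjusted p of 0.766 in limma. It was -1.11 without cKO replicate 1 and -0.55 without that array and Control replicate 3. Both replicate 3 arrays were the highest of their groups, and in each same-numbered set the cKO array was below its Control, by differences of -5.07, -1.42 and -1.13 for numbers 1, 2 and 3. The first of these, and the mean difference, rest on the cKO value that was not above background. With the replicate number as a block the standard error was 0.83 and the adjusted p 0.292. The block called 0 probes of 21805, with 14.9% at an unadjusted p of 0.05.

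The low value of Trf on cKO replicate 1 was one of many there. On that array alone, 1433 probes that the other 5 arrays detected were missed, 6.57% of the tested probes, against 37 to 236 such probes for each of the other arrays. The genes whose pattern was most like Trf over the 6 arrays were H2ac19, Creg1, Stim1, Crtc3 and Cdk4, at 0.28 to 0.43 log2 units against a median of 2.24. Stim1 is a calcium sensor of the endoplasmic reticulum and Cdk4 a kinase of the G1 phase. Inha, the inhibin alpha subunit that Sertoli cells secrete, was named after its values were seen, with 5.42, 9.92 and 12.24 in cKO and 11.59, 11.20 and 12.85 in Control. The Inha value of 5.42 on cKO replicate 1 lay near that array's lowest detected level of 5.35. All 10 Sertoli markers had negative differences, with a median of -0.30, and none passed. Inha had the most negative of them, at -2.69 ± 1.54. Of the cKO arrays, replicate 1 was the lowest for the other markers except Sox9, Rhox5 and Aard. The part of that array's general state in the Trf difference was not tested.

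**Figure D3:**
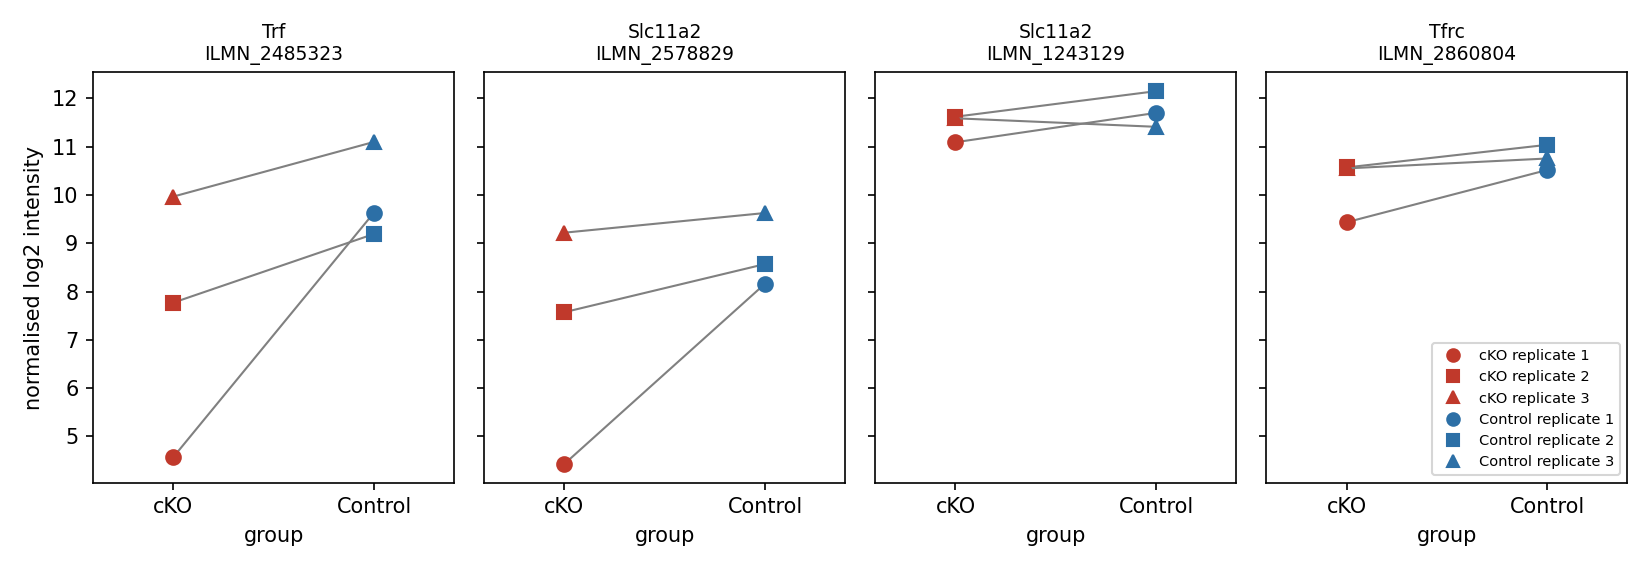
Normalised log2 intensity (vertical axis) of the Trf probe, 2 Slc11a2 probes and the brightest Tfrc probe, with cKO to the left and Control to the right and grey lines joining arrays of the same replicate number. The Trf probe and Slc11a2 probe ILMN_2578829 lie at 4.57 and 4.43 on cKO replicate 1, whereas Slc11a2 probe ILMN_1243129 lies at 11.09 there.

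Tfrc, the receptor that takes up iron-loaded transferrin, was measured by 2 probes that gave the same sign. The brighter, ILMN_2860804, was at 9.43, 10.57 and 10.55 on cKO replicates 1 to 3, against 10.52, 11.04 and 10.76 on Control replicates 1 to 3. Its difference was -0.59 ± 0.38 (SE), with a 95% interval from -1.47 to 0.30 and an adjusted p of 0.766 in limma. The other, ILMN_2619848, was at 8.51, 10.06 and 10.30 in cKO and 10.24, 10.67 and 10.41 in Control, a difference of -0.81 ± 0.48. On both probes cKO replicate 1 was the lowest array, and the remaining cKO arrays overlapped the Control arrays. In each same-numbered set the cKO array was the lower, by 0.21 to 1.08 log2 units for the brighter probe, whose difference was -0.21 without cKO replicate 1.

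Slc11a2 encodes DMT1, the transporter that carries ferrous iron out of endosomes, and its 3 probes disagreed in size. The brightest, ILMN_1243129, was at 11.09, 11.62 and 11.59 in cKO and 11.70, 12.15 and 11.41 in Control, a difference of -0.32 ± 0.31 (limma's adjusted p 0.778), which was -0.15 without cKO replicate 1 and -0.12 without Control replicate 2. The dimmer probe ILMN_2665063 gave -0.11 ± 0.35. Probe ILMN_2578829 gave -1.71 ± 1.11, from 4.43, 7.57 and 9.22 in cKO and 8.16, 8.57 and 9.63 in Control, and it was not above background on cKO replicate 1, as for Trf. Without cKO replicate 1 and Control replicate 3, that probe's difference was 0.029, so its sign rests on those arrays. The groups overlapped on each of the 3 probes. Which transcripts each probe detects was not determined, and the gene has several.

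The ferritin probes lay near the top of the intensity range. Fth1, the heavy subunit that oxidises iron for storage, had 2 probes above 99.9% of all probes. Probe ILMN_2876066 was at 14.63, 14.73 and 14.46 in cKO and 14.44, 14.55 and 14.31 in Control, a difference of 0.17 ± 0.24 with a 95% interval from -0.39 to 0.74. Probe ILMN_2876071 gave 0.07 ± 0.24, with an interval from -0.48 to 0.63. The groups overlapped on both. The adjusted p were 0.829 and 0.928 in limma, and the intervals allow differences of up to 0.74 and 0.63 log2 units. Unnormalised Fth1 intensities were 18618 to 29008.4, where the brightest probe of an array read 27310.7 to 34564.9, so differences could be compressed there.

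Ftl1, the light ferritin subunit, was at 12.48, 12.96 and 12.80 on cKO replicates 1 to 3, against 12.07, 12.79 and 12.45 on Control replicates 1 to 3. In each same-numbered set the cKO array was higher, by 0.42, 0.18 and 0.35, although the groups overlapped. The difference was 0.31 ± 0.29, with a 95% interval from -0.38 to 1.00 and an adjusted p of 0.776 in limma. Ferritin genes have processed copies in the mouse genome, and whether these probes also bind their transcripts was not determined.

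Slc40a1 encodes ferroportin, the only known exporter of iron from mammalian cells. Its detected probe, ILMN_2747923, was at 9.98, 8.96 and 8.16 on cKO replicates 1 to 3, against 7.96, 8.76 and 8.38 on Control replicates 1 to 3. Of the cKO arrays, replicate 1 was well above all Control arrays, replicate 2 slightly above them and replicate 3 within their range. The difference was 0.67 ± 0.48, with an adjusted p of 0.766, and it was 0.20 without cKO replicate 1, with or without Control replicate 3.

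Cp encodes ceruloplasmin, the copper-containing ferroxidase that works beside ferroportin and is made by Sertoli cells and by liver. The brightest probe, ILMN_3083163, was at 7.47, 6.55 and 7.01 in cKO and 6.11, 6.21 and 6.55 in Control, a difference of 0.72 ± 0.32 with a 95% interval from -0.03 to 1.46. Its lowest cKO array and its highest Control array were level, and in each same-numbered set the cKO array was higher, by 0.33 to 1.35. Probe ILMN_2520239 was at 6.16, 5.26 and 5.91 in cKO and 4.70, 4.57 and 4.82 in Control, and was above background on 3 of 3 cKO arrays and 1 of 3 Control arrays. Its difference of 1.08 ± 0.31 therefore rests on Control values mostly at background, and it was 0.56 with uncorrected intensities, 0.58 with normexp at offset 50 and 0.66 with the deposited log2 values. The third, ILMN_1218681, gave 0.21 ± 0.24. Adjusted p were 0.766, 0.462 and 0.806 in limma, so no Cp probe passed.

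**Figure D4:**
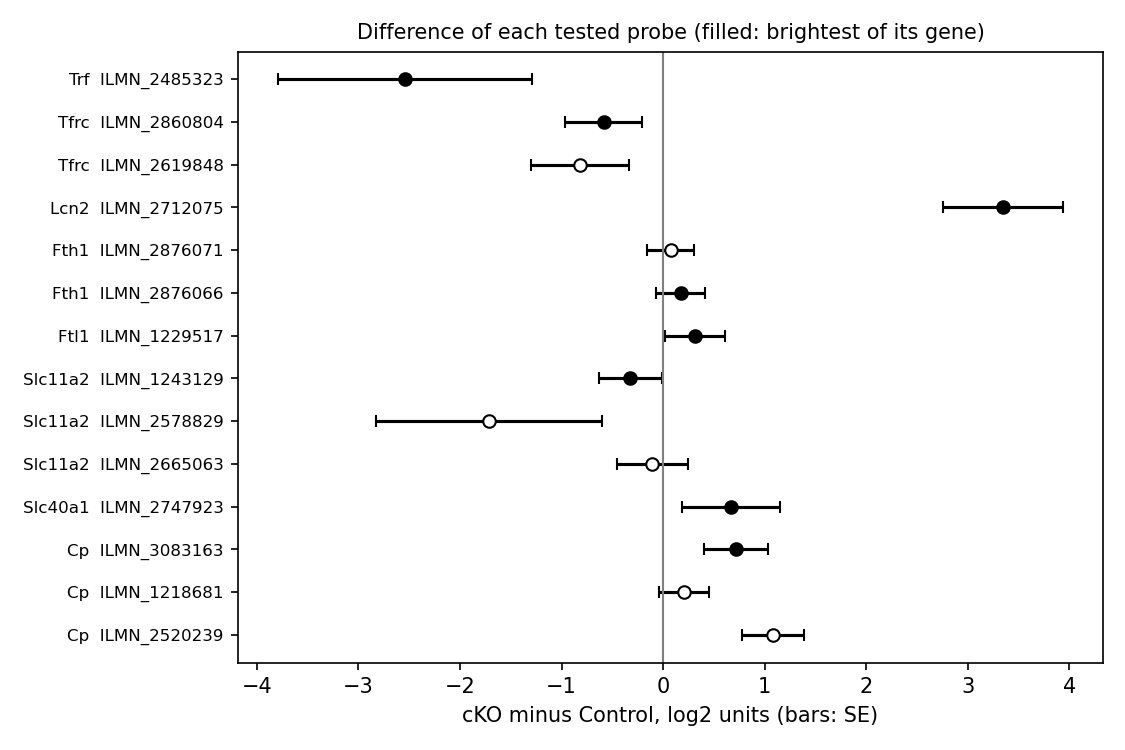
The cKO minus Control difference in log2 units (horizontal axis) of each of the 14 tested probes, with bars for the SE, filled points for the brightest probe of a gene and open points for its other probes. Lcn2 stands at 3.35 and Trf at -2.54, the 3 Cp probes lie above 0, and the Fth1 probes lie within their SE of 0. Cp probe ILMN_2520239 was above background on only 1 of 3 Control arrays and was tested only through its cKO values.

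Over the 8 genes, 5 had positive and 3 negative differences at their brightest probe, with a median of 0.24, beside 61.3% positive and a median of 0.12 over all 12277 tested genes. The negative ones were Trf, Tfrc and Slc11a2. None of these 8 signs turned under any alternative run, although only the 95% interval of Lcn2 excluded 0 among these probes.

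Other genes of iron metabolism, in 4 lists, also gave no call in either direction, where limma called 24 of 12277 genes, or 0.195%, higher in cKO and 0 lower. Of 15 genes of iron import and reduction, 11 were tested, 9 of them positive, with a median of 0.58. The transferrin receptor homologue Tfr2 differed by 0.70 ± 0.28, the ferrireductase family member Steap1 by 0.93 ± 0.41, the mitochondrial iron importer Slc25a28 by 0.58 ± 0.35 and melanotransferrin (Meltf) by 0.61 ± 0.40, with adjusted p of 0.747 to 0.766. Without cKO replicate 1 and Control replicate 3 the last 3 were 0.32, 0.099 and 0.057, and with uncorrected intensities Tfr2 was at 0.36. The cKO arrays lay above the Control arrays for Tfr2, Steap1 and Steap4, or 3 of the 11 tested genes. Of all tested genes, 9.56% did so and 4.33% had all cKO arrays below. All 3 genes were dim. Steap1 was detected on 5 of 6 arrays, and Steap4, which differed by 0.125 ± 0.231, on 4 of 6. On Control replicate 3, Steap1 was at 4.71 and Tfr2 at 4.83, where the lowest detected level was 4.82.

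Of 15 genes of iron storage, export and systemic control, 12 were tested, 7 positive and 5 negative, with a median of 0.16. The dehydrogenase Bdh2, reported to act in the synthesis of a mammalian siderophore, differed by 0.83 ± 0.37. The hemojuvelin gene Hjv differed by 0.47 ± 0.24 and its binding partner neogenin (Neo1) by -0.48 ± 0.29. The Hjv probe was detected on 5 of 6 arrays, and its 5.09 on Control replicate 1 was under that array's lowest detected level of 5.14. With uncorrected intensities its difference was 0.23, and a second Hjv probe gave -0.09. Aco1, which encodes iron regulatory protein 1, differed by -0.62 ± 0.40. Its paralogue Ireb2 and the ferritin degradation receptor Ncoa4, both named after their values were seen, differed by -0.29 ± 0.38 and 0.17 ± 0.37, with second probes at -1.19 and -0.38. Without cKO replicate 1, Bdh2 was at 0.50 and Aco1 at -0.25. Adjusted p of these 6 were 0.766 to 0.891. The multicopper ferroxidase hephaestin (Heph) was detected on no array by any of its 5 probes.

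For heme handling, 16 of 19 genes were tested, 10 positive and 6 negative, with a median of 0.07. The heme transporters Flvcr2 and Flvcr1 differed by -0.77 ± 0.35 and -0.43 ± 0.34, and the heme synthesis enzymes Alas1 and Fech by 0.44 ± 0.26 and 0.48 ± 0.32, all with an adjusted p of 0.766. A second Fech probe gave -0.19, and without cKO replicate 1 and Control replicate 3 the brighter was at 0.080 and Flvcr2 at -0.40, while Flvcr1 was at -0.18 without cKO replicate 3. Heme oxygenase Hmox1, named after its values were seen, differed by 0.17 ± 0.32 (adjusted p 0.877). For iron-sulfur cluster assembly, 8 of 14 genes were tested, 6 positive and 2 negative, with a median of 0.14. There Nfu1, Isca2, Cisd1 and Glrx5 had the smallest p, with differences of 0.31, 0.31, 0.27 and 0.20 and adjusted p of 0.775 to 0.822, and without cKO replicate 1 and Control replicate 3 they were 0.12, 0.047, -0.077 and 0.042.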

How the data were processed

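Per the file headers, each scanner table holds a probe's mean intensity, its bead SD, its number of beads and a detection score; the authors' intensity values are linear. The deposited detection score is a fraction that rises with signal, and a score over 0.95 counted as detected. The deposited series table holds log2 values, found by comparison with the scanner tables to be scaled to the 75th percentile of each array and then centred per probe on its median. The submitters' processing notes name BeadStudio and give no version. Probe IDs were joined to scanner probe numbers through that formula, and all 45281 matched once (largest distance 0.000395, smallest distance to a second probe 0.00279). One gene symbol was given for 34885 probes, several for 18 and none for 10378; 34807 Entrez IDs were in the GRCm38.p6 gene table.

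Intensities were background-corrected and quantile-normalised by the neqc procedure (offset 16) in limma 3.58.1 (R 4.3.3). The 21805 probes detected on at least 3 of 6 arrays were fitted with lmFit and eBayes, two-sided, group as the only term, with Benjamini-Hochberg adjustment over all of them. The fit was tested on simulated data. All adjusted p-values are limma's. The members and lists were chosen with earlier results of these data known. Named genes are all member probes, the 4 of each pathway list with the smallest p, and the 5 genes most like Lcn2 and Trf. Marker genes, Ltf, Heph, Inha, Slc22a17, Ireb2, Ncoa4 and Hmox1 fall outside that rule and were picked after their values were seen. Arrays were paired by the replicate number in their titles, and the meaning of that number is unknown. Deviations of same-numbered arrays from their group means correlated at 0.262, 0.410 and 0.473. The replicate number entered as a block in an alternative.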

Additional observations from a re-analysis of the deposited data

How the results depend on the processing

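In limma 31 probes of the whole array were called higher in cKO. With normexp at offset 50 the count was 12, with uncorrected intensities 12, with dim probes kept 1, with the brightest probe of each gene alone 56, with the replicate number as a block 0 (3257 at an unadjusted p of 0.05) and without cKO replicate 1 and Control replicate 3 together 6. Leaving out 1 array at a time gave 0 to 15: it was 0 without Control replicate 1, 2 or 3, and 8, 2 and 15 without cKO replicates 1, 2 and 3. The cause was not tested. No setting called a lower probe or a member probe, with 874 to 2622 probes at an unadjusted p of 0.05 where a Control array was left out. The replicate block changed no other call.

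The brightest probe of each of the 8 genes kept its sign under all 15 alternatives (14 for Trf, which detection on all 6 arrays leaves out). Lcn2 ran from 2.90 to 3.95, Cp from 0.49 to 0.95, Slc40a1 from 0.20 to 1.10, Ftl1 from 0.13 to 0.53, Fth1 from 0.098 to 0.28, Slc11a2 from -0.49 to -0.12, Tfrc from -0.78 to -0.21 and Trf from -3.81 to -0.55. Cp probe ILMN_2520239 ran from 0.56 to 1.34. For other probes and pathway genes the alternatives were added after seeing the data. Without cKO replicate 1 and Control replicate 3 the sign turned for Slc11a2 probe ILMN_2578829 (0.029), Cisd1 (-0.077), Slc22a17 (0.014) and Ireb2 (0.12). Without 1 array at a time these ran from -2.79 to -0.39, 0.078 to 0.49, -2.24 to -0.36 and -0.58 to -0.086, while Slc11a2 probe ILMN_2665063 ran from -0.42 to 0.15, Ncoa4 from -0.16 to 0.38 and Hmox1 from -0.086 to 0.42. Signs turned without Control replicate 2 for that Slc11a2 probe and Ncoa4, and for Hmox1 without Control replicate 3. The cause was not tested. Leaving out both outlying arrays moved the median of all probes by -0.11, and 3 arrays per group limit precision throughout.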
